A study of Mus musculus with 26 samples.

Results

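The genes described here are 11 protein-coding mouse genes that E-A14 mammary tumour cells transcribed in culture and in T cell-depleted mice and far less in tumours grown in control mice. They were chosen from the measured values. In CPM, a gene's read count scaled to a library total of 1e+06, the mean had to be at least 5 in the cultured line and in both groups of depleted tumours. In both groups of control tumours it had to be at most 1/8 of the lower depleted mean. Of 47730 features in the count table, 9140 met the first demand and 11 met both. Those are Klk6, Klk8, Serpinb2, Padi1, Klra1, Klra4, Styk1, Il24, Grem1, Acsbg1 and Acta1. Because the rule used the levels in all 5 groups, the gap between control and depleted tumours is described without a test.

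E-A14 is a Her2-expressing mouse mammary tumour line, which was implanted into the fat pad of FVB/N mice aged 6 to 8 weeks. The depleted mice received 100 µg each of anti-CD4 and anti-CD8a antibody 2 times a week from 2 weeks before implantation. The control mice received the same dose of rat IgG2a and rat IgG2b on the same schedule and form the immunocompetent group. Depleted tumours reached their end point on day 20 and control tumours on day 47, so treatment and time of growth cannot be told apart. Dead cells and those positive for CD90, CD105 or CD45 were excluded, and the rest was sorted into Her2+EpCAM+ and Her2+EpCAM- fractions, 6 libraries of each fraction per treatment, from 6 mice per treatment. The cultured E-A14 line, not sorted, gave 2 libraries, and the labels do not say that these were separate cultures. Spread between separate cultures may therefore be unmeasured. P-values that involve the culture rest on a spread pooled over all groups, mostly tumour libraries, and assume that the culture varies like them. All libraries derive from this 1 line.

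Library totals ranged from 17559520 to 25601999 counts in depleted tumours, from 26895429 to 38740143 in control tumours, and were 27253363 and 35059744 in culture. Every control library was thus deeper than every depleted one. The sort labels could be checked on Epcam, the gene of the sorted surface protein. Its level was 2085 to 2726 CPM in depleted EpCAM-positive and 40.7 to 295 CPM in depleted EpCAM-negative libraries. In control tumours it was 803 to 1484 CPM in the EpCAM-positive and 0.986 to 2.24 CPM in the EpCAM-negative libraries. The rat Neu transgene that makes the cells Her2-positive was read at 262 to 743 CPM in every tumour library.

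The 11 genes have different textbook roles. Klk6 and Klk8 are secreted trypsin-like serine proteases of the tissue kallikrein family, best known from skin and the nervous system. Serpinb2 is an inhibitor of the urokinase-type plasminogen activator, and Padi1 converts arginine residues of proteins to citrulline in differentiating epithelium. Klra1 and Klra4 encode Ly49A and Ly49D, lectin-like receptors of natural killer (NK) cells for class I molecules: the first is inhibitory and the second is activating and signals through the adaptor Tyrobp. Styk1 is a membrane protein with a kinase-like domain. Il24 is a cytokine of the interleukin 10 family, and Grem1 is a secreted antagonist of bone morphogenetic proteins (BMPs). Acsbg1 activates long-chain fatty acids to their CoA esters, and Acta1 is the actin of skeletal muscle.

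In all 11 genes, every one of the 12 control libraries lay below every one of the 12 depleted libraries. Over the 16637 genes tested, 3.25% had that arrangement, but the rule selects for it and nothing is read from the count. The ratio of the lower depleted mean to the higher control mean was 31.99 for Klra1, 31.1 for Klk6, 27.7 for Klk8 and 26.3 for Klra4. It was 19.5 for Serpinb2, 14.7 for Acsbg1, 13.8 for Styk1, 12.8 for Padi1, 12.7 for Acta1, 10.0 for Grem1 and 9.23 for Il24. The transcripts were reduced rather than gone in most members: a count of 0 occurred in at least 1 control library in 5 members, and Serpinb2 alone had none over a whole control group. Acta1, Grem1 and Il24 were the members nearest to the threshold. Just outside it were Zfpm2 with a ratio of 6.93, Klk10 with 6.71 and Fam78b with 6.28. In bulk RNA, fewer cells that transcribe a gene and less RNA per cell cannot be told apart.

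**Figure D1:**
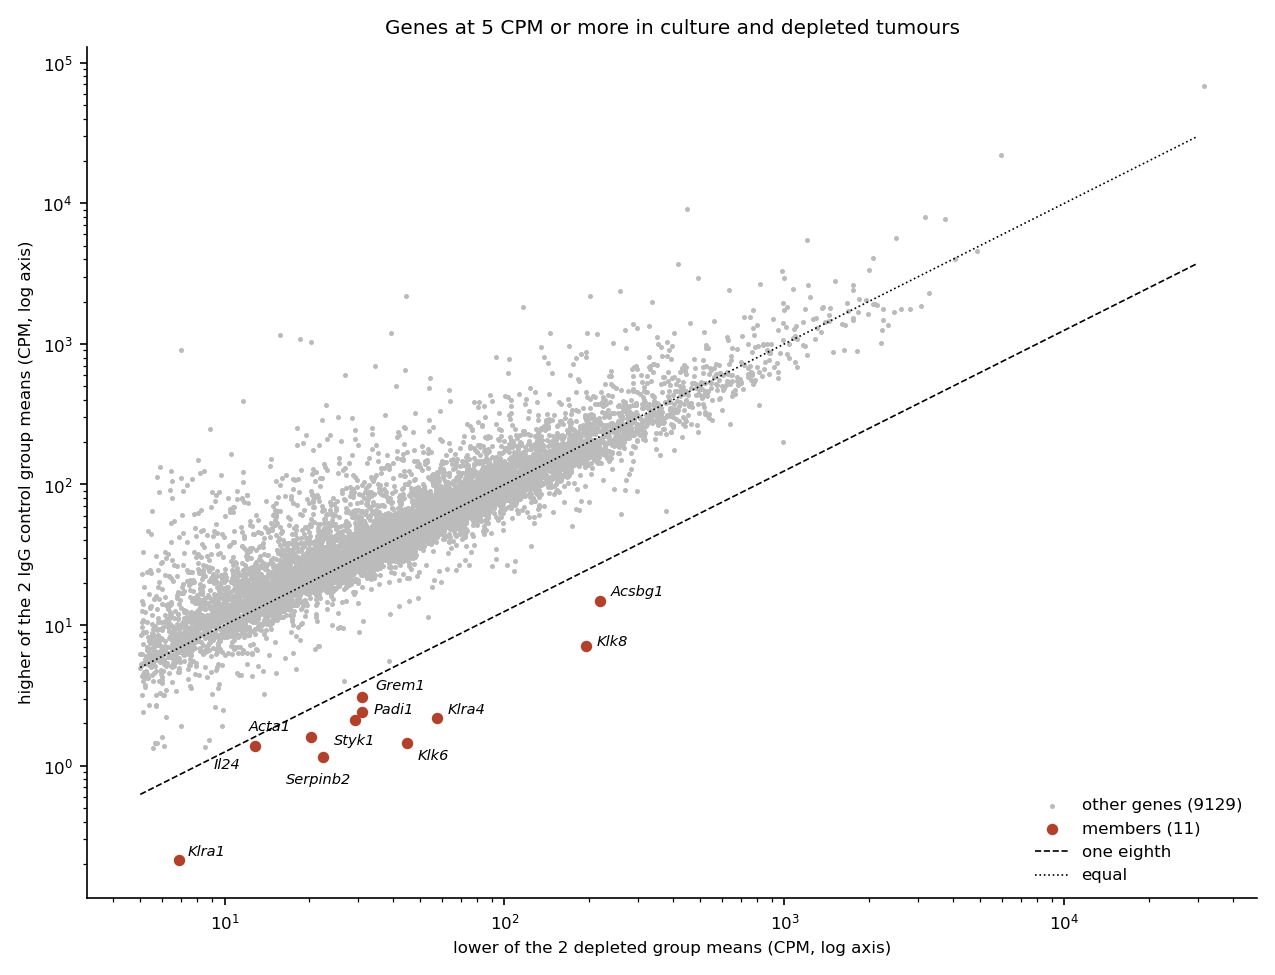
Each point is 1 of the 9140 genes at 5 CPM or more in culture and both depleted groups, with the lower of the 2 depleted means on the horizontal axis and the higher of the 2 control means on the vertical axis, both in CPM on log axes. The 11 members (red) lie under the dashed line of 1/8, and Il24 and Grem1 lie closest to it.

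**Figure D2:**
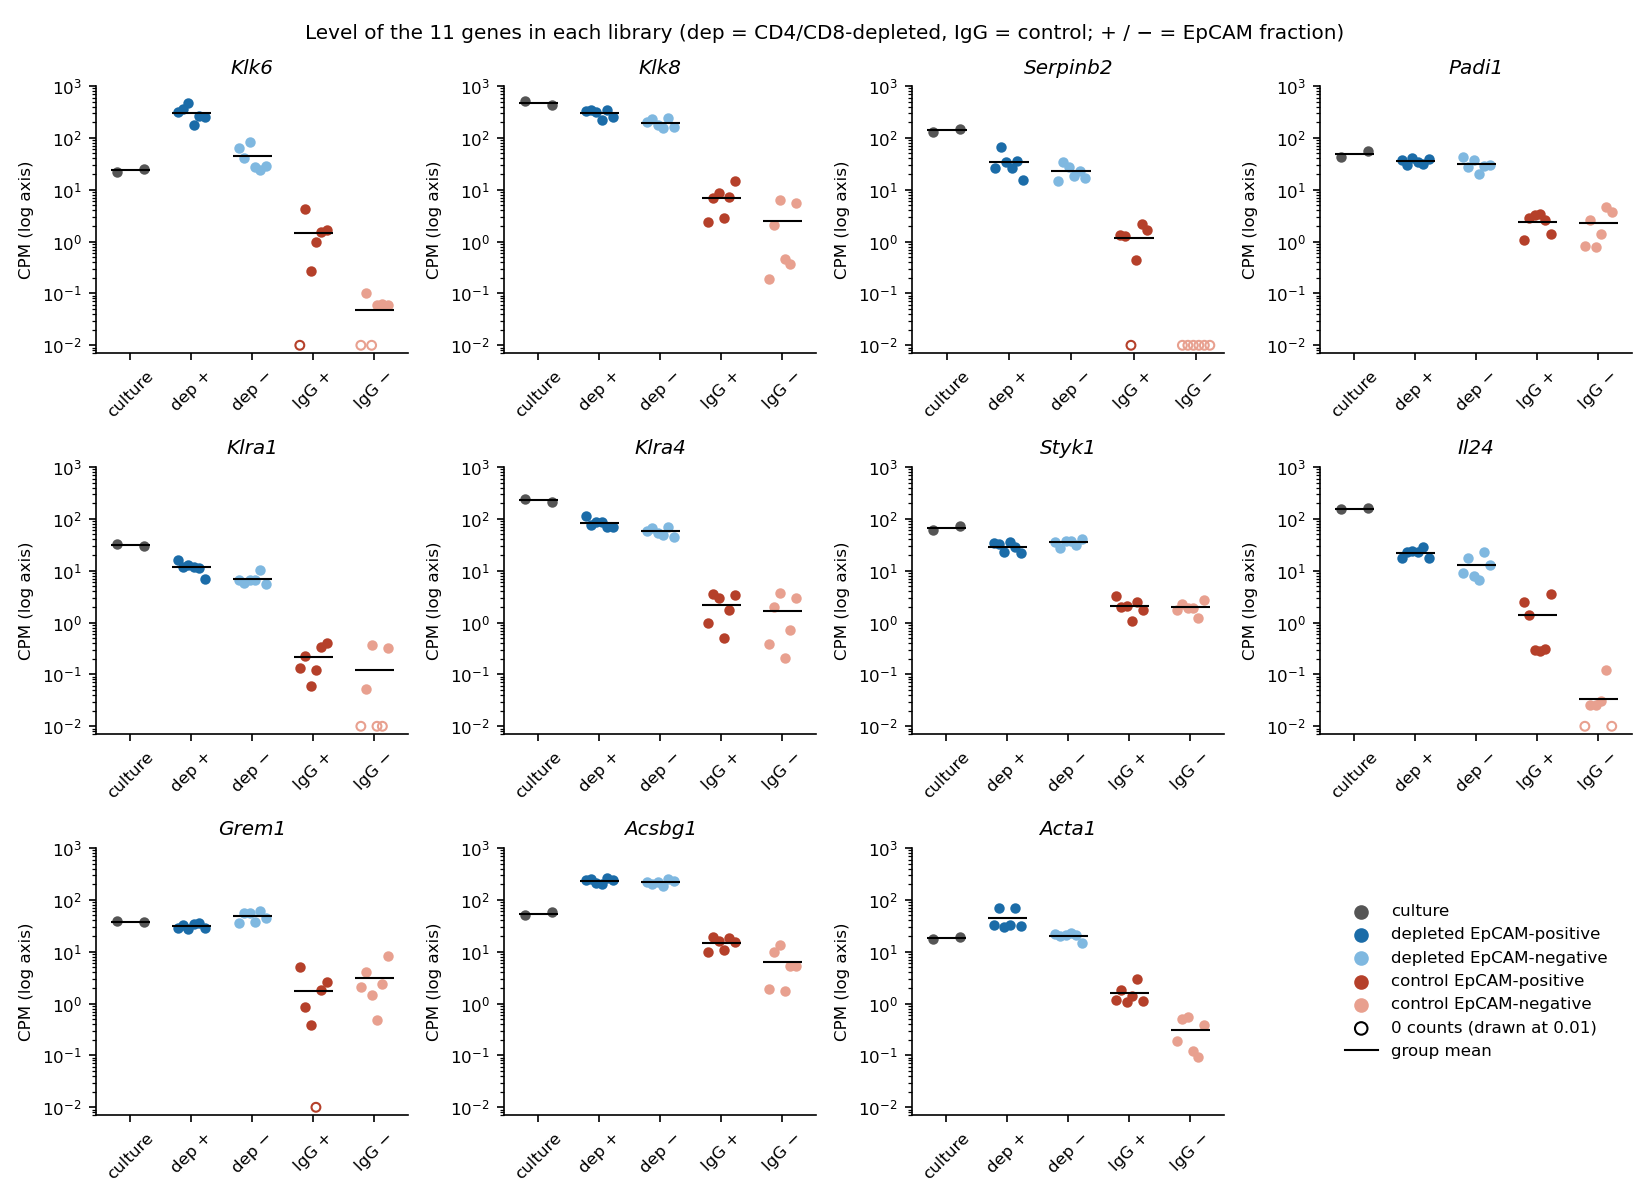
Each panel shows 1 gene and each point 1 library, in CPM on a log axis, with 2 culture libraries and 6 in each tumour group. Bars are group means and open circles are libraries with 0 counts, drawn at 0.01. In every panel all red control points lie below all blue depleted points, and the EpCAM-negative control libraries of Serpinb2, Il24 and Klk6 are at or near 0.

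Klk8, the kallikrein also called neuropsin, was at 431 and 508 CPM in the cultures. Its lowest, median and highest levels were 218, 321 and 340.3 CPM in depleted EpCAM-positive cells and 158, 189 and 240.3 CPM in depleted EpCAM-negative cells. In control tumours they were 2.43, 7.07 and 14.5 CPM in EpCAM-positive cells and 0.191, 1.28 and 6.27 CPM in EpCAM-negative cells. The lowest depleted library therefore stood an order of magnitude above the highest control library. The mean was 42.2-fold higher in depleted than control EpCAM-positive cells and 79.1-fold higher in depleted than control EpCAM-negative cells.

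Klk6, also called neurosin, was at 22.02 and 25.6 CPM in the cultures, well under its level in depleted EpCAM-positive tumour cells. There its lowest, median and highest levels were 176, 291 and 473 CPM, against 23.9, 34.9 and 83.0 CPM in depleted EpCAM-negative cells. The depleted fractions did not overlap, an arrangement seen in 15.7% of all genes tested and, among the members, in Klk6 and Acta1 only. In control EpCAM-positive cells it was 0, 1.26 and 4.17 CPM. In control EpCAM-negative cells only 10 counts were read over 6 libraries, 2 of which had none, and the highest was 0.104 CPM. The mean was 214-fold higher in depleted than control EpCAM-positive cells.

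The other kallikreins were examined as a family, listed by symbol after the members were known. Of 26 Klk genes in the table, 5 reached a mean of 1 CPM in any group, and all 5 are among the neighbouring genes Klk10, Klk9, Klk8, Klk7 and Klk6. The 3 that are no members were tested between treatments in the fit over all genes (edgeR quasi-likelihood, Benjamini-Hochberg adjustment). In that fit 40% of genes differed between treatments in EpCAM-positive cells, 22.4% being higher and 17.6% lower in control tumours. In EpCAM-negative cells it was 45.1%, with 23.2% higher and 21.9% lower. Klk10 had mean levels of 161 CPM in culture, 26.8 and 54.0 CPM in depleted EpCAM-positive and EpCAM-negative cells, and 3.11 and 3.99 CPM in the same fractions of control tumours. It fell in control tumours with a log2 fold change of -3.10 ± 0.51 (SE) in the EpCAM-positive fraction and -3.59 ± 0.51 in the EpCAM-negative one (edgeR adjusted p = 2.3e-05 and 2.3e-06). Klk9 was at 2.34 and 8.61 CPM in the depleted fractions and at 0.0316 and 0.00499 CPM in the control fractions. Klk7 was at 4.68 and 1.23 CPM in the depleted fractions and at 0.183 CPM and 0 in the control fractions. Both genes were called lower in both control fractions, Klk7 with a log2 fold change of -4.71 in EpCAM-positive cells. Their control levels rest on few counts, so nothing is read from those calls.

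Serpinb2 was at 130.1 and 151 CPM in culture. The lowest, median and highest levels were 15.4, 30.5 and 66.2 CPM in depleted EpCAM-positive and 14.9, 20.7 and 34.0 CPM in depleted EpCAM-negative cells. In control EpCAM-positive cells they were 0, 1.32 and 2.20 CPM. No Serpinb2 read was counted in any of the 6 control EpCAM-negative libraries. With 3 counts over the group as the limit that a count of 0 allows, the mean was at least 1594-fold higher in depleted than in control EpCAM-negative cells, with counting error only in that bound. It was 29.7-fold higher in depleted than control EpCAM-positive cells.

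The plasminogen activators that Serpinb2 inhibits differed by fraction. Plau, the urokinase-type activator, had mean levels of 129 CPM in culture, 72.9 and 23.5 CPM in depleted EpCAM-positive and EpCAM-negative cells, and 17.4 and 26.5 CPM in the control fractions. It fell in control EpCAM-positive cells by 2.05 ± 0.22 (SE) on the log2 scale (edgeR adjusted p = 2.6e-08) and did not pass in EpCAM-negative cells (log2 fold change 0.36 ± 0.21, adjusted p = 0.17). Its receptor Plaur fell in both fractions, with log2 fold changes of -1.995 and -2.35. Plat, the tissue-type activator, fell in control EpCAM-positive cells (log2 fold change -0.71) and rose in EpCAM-negative cells (log2 fold change 0.73). Among the 26 Serpinb genes other than Serpinb2, 9 were tested. In control EpCAM-positive cells 4 were higher and 1 was lower, and in control EpCAM-negative cells 2 were higher and 3 lower.

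Serpinb2 was the member with the most matches to the promoter motifs searched. The sequences below, in lower case, are the 250 bases before a RefSeq start in build GRCm38.p6, a different build from that of the counts. They show Serpinb2 and Acta1, which hold matches, beside Klk8 and Klk6, the neighbouring pair without any. Capitals mark TGANTCA, the binding motif of the AP-1 factors, and TATAAA, the TATA box, searched on both strands. The positions are chr1:107511173-107511422 on the plus strand for Serpinb2, chr8:123894776-123895025 on the minus strand for Acta1, and on the plus strand chr7:43797327-43797576 for Klk8 and chr7:43825200-43825449 for the downstream start of Klk6.
Serpinb2: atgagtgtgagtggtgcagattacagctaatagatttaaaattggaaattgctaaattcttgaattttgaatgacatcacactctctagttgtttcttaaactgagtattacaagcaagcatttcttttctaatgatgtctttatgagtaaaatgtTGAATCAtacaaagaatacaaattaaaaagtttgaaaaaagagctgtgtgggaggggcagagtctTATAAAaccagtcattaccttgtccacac
Acta1: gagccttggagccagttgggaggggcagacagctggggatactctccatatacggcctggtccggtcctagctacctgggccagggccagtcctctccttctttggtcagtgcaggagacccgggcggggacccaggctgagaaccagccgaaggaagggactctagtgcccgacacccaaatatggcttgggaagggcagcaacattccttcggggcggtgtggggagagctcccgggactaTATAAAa
Klk8: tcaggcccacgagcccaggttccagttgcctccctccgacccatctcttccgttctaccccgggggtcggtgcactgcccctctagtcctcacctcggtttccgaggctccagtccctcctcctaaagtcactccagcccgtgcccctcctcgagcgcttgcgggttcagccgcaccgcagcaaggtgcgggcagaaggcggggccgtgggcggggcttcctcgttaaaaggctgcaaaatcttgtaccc
Klk6: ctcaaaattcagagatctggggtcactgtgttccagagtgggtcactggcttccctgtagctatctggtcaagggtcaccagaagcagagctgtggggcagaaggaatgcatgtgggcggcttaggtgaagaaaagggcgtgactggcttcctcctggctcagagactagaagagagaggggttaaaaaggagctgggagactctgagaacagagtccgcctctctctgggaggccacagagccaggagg

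In Serpinb2 the AP-1 match began 94 bases before the start and the TATA match 29 bases before it. In Acta1 the TATA match began 7 bases before the annotated start. RefSeq promoters were matched by symbol for 9 of the 11 members, with 11 starts in all, and Styk1 and Il24 had none in the table. In windows of 300 bases, which run 50 bases past each start, TGANTCA stood in 7.81% of all 32851 promoters and in both of Serpinb2. TATAAA stood in 13.6% of all and in 3 of the members' windows, both of Serpinb2 and that of Acta1. The windows of Serpinb2 overlap, and its AP-1 and TATA matches are the same sites in both, counted once per window. The cyclic AMP element TGACGTCA was in 1.79% of all and in no member's window. CCAAT was in 37.4% of all and in 4 of the 11. The observed over expected number of CpG dinucleotides had a median of 0.136 in the members' windows and 0.384 over all, and 8 of 11 were under that overall median. A match is a string of letters and no measurement of binding.

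Padi1 was at 42.7 and 56.8 CPM in culture. Its lowest, median and highest levels were 30.3, 35.5 and 40.6 CPM in depleted EpCAM-positive and 20.0, 28.9 and 42.6 CPM in depleted EpCAM-negative cells. In control tumours they were 1.08, 2.74 and 3.34 CPM and 0.800, 2.00 and 4.56 CPM in the same order of fractions. The fractions overlapped within each treatment, and the mean was 14.7-fold and 13.3-fold higher in depleted than control cells. Its neighbours encode related deiminases. Padi4 had means of 369 and 297 CPM in the depleted and 89.8 and 55.5 CPM in the control fractions, and its log2 fold changes were -2.02 ± 0.14 and -2.24 ± 0.14 (edgeR adjusted p = 1.5e-11 and 2.0e-12). Padi3 fell in both fractions with log2 fold changes of -1.04 and -1.10. Padi2 fell in control EpCAM-positive cells (log2 fold change -1.63) and did not pass in EpCAM-negative cells (log2 fold change -0.23, adjusted p = 0.42). Padi6 was at or under 0.300 CPM in every group and did not pass in either fraction (adjusted p = 0.084 and 0.081).

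Klra4, the activating Ly49D receptor, was at 214 and 239 CPM in culture. Its lowest, median and highest levels were 70.3, 81.3 and 112 CPM in depleted EpCAM-positive and 44.7, 57.0 and 71.1 CPM in depleted EpCAM-negative cells. In control tumours they were 0.495, 2.33 and 3.56 CPM in EpCAM-positive and 0.212, 1.37 and 3.67 CPM in EpCAM-negative cells. An NK receptor gene was thus read in a tumour line free of a host, where the rule demanded a level of every member. The means in depleted cells were 38.5-fold and 34.4-fold above those in control cells of the same fraction.

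Klra1, the inhibitory Ly49A receptor, had fewer counts. It was at 30.4 and 33.2 CPM in culture, 6.99, 11.7 and 15.97 CPM (lowest, median and highest) in depleted EpCAM-positive and 5.53, 6.49 and 10.1 CPM in depleted EpCAM-negative cells. Control EpCAM-positive libraries held 2 to 11 counts each, at most 0.409 CPM. Of the control EpCAM-negative libraries, 3 held no count and the highest was at 0.361 CPM. Styk1, which lies in the same region, was at 60.4 and 71.2 CPM in culture, and at 21.5, 30.4 and 36.3 CPM and 27.6, 36.3 and 41.7 CPM in the depleted fractions. In control tumours it was at 1.08, 2.08 and 3.30 CPM and 1.23, 1.89 and 2.73 CPM, a narrow range in both fractions, and 13.8-fold and 17.9-fold under the depleted means.

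Of 11 Klra genes in the table, 5 reached 1 CPM in any group. Among the 9 that are no members, 6 were tested: 4 fell and none rose in control EpCAM-positive cells, and all 6 fell in control EpCAM-negative cells, where 21.9% of all genes fell. Klra2 was at 12.4 CPM in culture, 8.78 and 9.61 CPM in the depleted and 1.07 and 1.51 CPM in the control fractions, with log2 fold changes of -3.01 ± 0.40 and -2.49 ± 0.39 (edgeR adjusted p = 1.1e-06 and 8.7e-06). The other 5 were at or under 2.80 CPM in every group and at or under 0.134 CPM in the control fractions. Nothing is read from the calls of those 5. Many Klra genes are close copies of each other, and their number differs between mouse strains. The cells are FVB/N, and no source used here states how reads were split between copies, so the values of single Klra genes are uncertain.

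Markers of T and NK cells were listed beside the Klra genes. The summed level of a list of 12 such genes was 1.83 to 2.50 CPM in culture, 0.442 to 3.50 CPM in depleted libraries and 1.30 to 3.53 CPM in control libraries. Trac was at 1.78 CPM in culture and 0.411 to 2.77 CPM in the tumour groups. In culture 10 of the 12 genes, Cd3e, Klrb1c and Ncr1 among them, had 0 counts. The part of such cells in the Klra levels of the tumours was not tested. Tyrobp, the adaptor of the activating Ly49 receptors, was at 0.0143 CPM in culture, 2.50 and 3.49 CPM in the depleted and 0.816 and 0.239 CPM in the control fractions. In depleted tumours it stood beside other macrophage markers, which are given at the end.

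Il24 was at 153 and 163 CPM in culture. Its lowest, median and highest levels were 17.4, 22.7 and 28.3 CPM in depleted EpCAM-positive and 6.60, 11.2 and 22.8 CPM in depleted EpCAM-negative cells. In control EpCAM-positive cells 3 libraries were at 0.279 to 0.305 CPM and the other three at 1.42 to 3.50 CPM. In control EpCAM-negative cells 7 counts were read over 6 libraries, and the highest was at 0.123 CPM. The control fractions did not overlap, which held for 14.3% of all genes tested and, among the members, for Il24 and Acta1. The mean was 15.9-fold higher in depleted than control EpCAM-positive cells.

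The receptor subunits of Il24 moved differently. Il20ra and Il22ra1 were at or under 0.0440 CPM in every group. Il20rb, the subunit that both receptors share, was at 1.93 CPM in culture, 0.823 and 0.803 CPM in the depleted and 11.1 and 27.7 CPM in the control fractions. It rose in control tumours, with log2 fold changes of 3.76 ± 0.34 and 5.29 ± 0.35 (edgeR adjusted p = 1.5e-09 and 4.4e-12). Of the other 4 genes of the interleukin 10 family that were listed, none reached 1 CPM in any group.

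Grem1 was at 37.1 and 38.5 CPM in culture. It was at 27.5, 30.4 and 36.2 CPM (lowest, median and highest) in depleted EpCAM-positive and 35.9, 50.7 and 61.9 CPM in depleted EpCAM-negative cells. In control tumours it was at 0, 1.34 and 5.02 CPM and 0.484, 2.26 and 8.12 CPM. It was 1 of the 2 members with a higher mean in EpCAM-negative than in EpCAM-positive depleted cells, the other being Styk1. The means in depleted cells were 17.5-fold and 15.8-fold above those in control cells. Its next gene in RefSeq order, Scg5, a chaperone of prohormone processing that is no member, had means of 1.69 and 2.80 CPM in the depleted and 0.118 and 0.166 CPM in the control fractions.

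Among BMP ligands, Bmp7 was at 0.585 CPM in culture, 143 and 229 CPM in the depleted and 2.80 and 0.280 CPM in the control fractions, and missed the rule only by its low level in culture. Bmp2 and the antagonist Chrd went the other way between treatments. Bmp2 was at 0.122 and 0.456 CPM in the depleted and 8.71 and 6.84 CPM in the control fractions, with log2 fold changes of 5.96 and 4.09. Chrd was at 0.180 and 3.29 CPM and at 7.55 and 15.7 CPM, with log2 fold changes of 5.47 and 2.43. Of 5 genes known as BMP targets, 2 were higher and 1 lower in control EpCAM-positive cells, and 2 were higher and 2 lower in control EpCAM-negative cells. Id2 rose in both fractions (log2 fold changes 2.65 and 2.33), and Id1 did not pass in EpCAM-positive cells (log2 fold change -0.03, edgeR adjusted p = 0.92).

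Acsbg1 was at 51.1 and 57.5 CPM in culture. It was at 201, 244 and 263 CPM (lowest, median and highest) in depleted EpCAM-positive and 188, 221 and 250.5 CPM in depleted EpCAM-negative cells. In control tumours it was at 9.93, 15.7 and 19.6 CPM and 1.78, 5.36 and 13.3 CPM. The means in depleted cells were 15.8-fold and 34.8-fold above those in control cells. Of 6 other acyl-CoA synthetases tested, 2 were higher and 2 lower in each control fraction. Acsl4 fell with log2 fold changes of -1.94 and -0.95, and Acsl3 rose with 0.79 and 0.76.

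Acta1 was at 17.6 and 19.4 CPM in culture. In depleted EpCAM-positive cells replicates 2 and 5 were at 69.8 and 70.0 CPM and the other four at 30.5 to 32.6 CPM. In depleted EpCAM-negative cells the lowest, median and highest levels were 14.7, 21.3 and 22.6 CPM. In control tumours they were 1.06, 1.29 and 2.99 CPM and 0.0924, 0.290 and 0.542 CPM. Fractions did not overlap in either treatment. Acta1 was the only member in a list of cell type markers, that of skeletal muscle. The other 7 muscle markers summed to 4.39 to 6.64 CPM in culture, 3.72 to 10.7 CPM in depleted and 4.35 to 13.5 CPM in control libraries, ranges that overlap, and Ckm was at or under 0.0260 CPM in every group. Acta2, the smooth muscle actin, rose in control tumours, from 3.02 and 10.8 CPM to 46.1 and 55.0 CPM (log2 fold changes 3.95 and 2.54). Actins are close copies of each other, so how their reads were split is uncertain.

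The rule fixes no direction between EpCAM fractions, and these were compared in the fit over all 26 libraries. In depleted tumours 28.5% of tested genes differed between fractions, 14.3% being lower and 14.2% higher in EpCAM-negative cells. Of the 11 members, 2 were lower, none was higher and 9 did not pass. Klk6 fell from 308 ± 104 (SD, n = 6) to 44.7 ± 23.8 CPM, a log2 fold change of -2.81 ± 0.42 (SE, edgeR adjusted p = 7.4e-06). Every EpCAM-negative library lay below every EpCAM-positive one. Acta1 fell from 44.5 ± 19.7 to 20.4 ± 2.92 CPM, a log2 fold change of -1.16 ± 0.27 (edgeR adjusted p = 0.0016). The median log2 fold change was -0.63 over the members and 0.01 over all genes tested. When only the depleted libraries entered the fit, 7 members passed, 6 lower and Grem1 higher. With replicate number as a block, Serpinb2, Il24, Klra4 and Klk8 also passed as lower, beside Klk6 and Acta1. The labels do not tie those numbers to tumours.

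In control tumours 27.9% of tested genes differed between fractions, 14.5% being lower and 13.3% higher in EpCAM-negative cells. Of the members 6 were lower, none was higher and 5 did not pass. However, 4 members, Serpinb2, Il24, Klk6 and Klra1, had too few reads to pass the expression filter on the control libraries alone, and they entered the fit only through the culture and the depleted tumours. Their control fractions are therefore given as levels, without a test. The Il24 level was 1.39 ± 1.37 CPM (SD, n = 6) among EpCAM-positive cells and 0.0342 ± 0.0456 CPM among EpCAM-negative ones. Serpinb2 was at 1.15 ± 0.803 CPM and at 0 counts in the same order, and Klk6 at 1.44 ± 1.49 and 0.0477 ± 0.0406 CPM.

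Of the 7 members with enough reads in control tumours, 3 were lower in EpCAM-negative cells and 4 did not pass. Acta1 fell from 1.60 ± 0.740 to 0.305 ± 0.195 CPM (SD, n = 6), a log2 fold change of -2.22 ± 0.37 (SE, edgeR adjusted p = 4.0e-05). Acsbg1 fell from 14.9 ± 3.90 to 6.30 ± 4.56 CPM, a log2 fold change of -1.12 ± 0.30 (edgeR adjusted p = 0.0054). Klk8 passed with a log2 fold change of -1.35 ± 0.49 (edgeR adjusted p = 0.040), which was lost in 8 of 12 fits that left out 1 control library. When only the control libraries entered the fit, Acta1 passed, while Acsbg1 (adjusted p = 0.051) and Klk8 (adjusted p = 0.17) did not.

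The size of the fraction difference was itself compared between treatments, and 18% of all genes passed, with 8.69% higher and 9.33% lower in the control contrast. The 2 members called were Serpinb2 and Il24, whose control EpCAM-negative groups held 0 and 7 counts, so nothing is read from those calls. Of the 7 members with enough reads in control tumours, none passed. The nearest were Acsbg1 with a log2 difference of -0.97 ± 0.40 (SE, edgeR adjusted p = 0.099) and Acta1 with -1.06 ± 0.45 (edgeR adjusted p = 0.11).

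**Figure D3:**
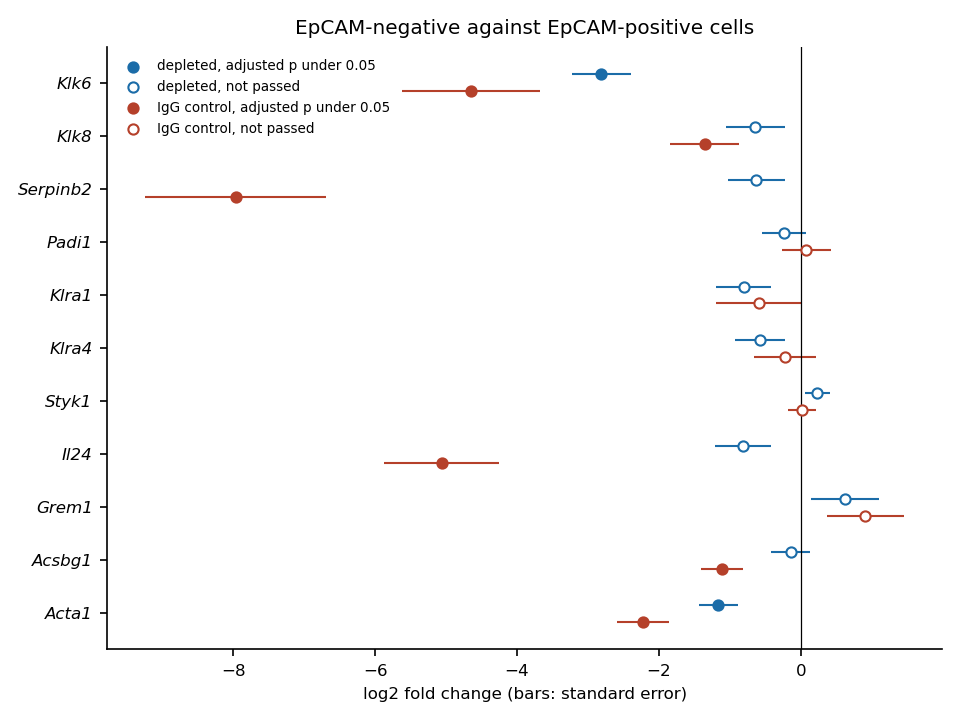
Log2 fold change of EpCAM-negative against EpCAM-positive cells for each member in depleted (blue) and control (red) tumours, with the standard error as bars and filled points for an edgeR adjusted p under 0.05. All members except Grem1, Styk1 and Padi1 lie left of 0 in both treatments. The control points of Serpinb2, Il24, Klk6 and Klra1 are fitted to very few counts, with 0 in EpCAM-negative cells for Serpinb2.

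Against the cultured line, the 11 genes had gone different ways in depleted tumours. In EpCAM-positive cells 39.5% of tested genes differed from culture, 20.9% higher and 18.6% lower. Of the 11 genes, 3 rose above culture, 5 fell below it and 3 remained without a call. Klk6 was 12.9-fold above culture (log2 fold change 3.85 ± 0.71, edgeR adjusted p = 8.9e-05), Acsbg1 4.35-fold (2.28 ± 0.45, adjusted p = 0.00021) and Acta1 2.40-fold (1.42 ± 0.41, adjusted p = 0.0070). Il24 was lower with a log2 fold change of -2.68 ± 0.49, Serpinb2 with -1.89 ± 0.51, Klra1 with -1.28 ± 0.50, Klra4 with -1.28 ± 0.46 and Styk1 with -1.02 ± 0.24. Klk8, Padi1 and Grem1 did not pass. The number of members that passed fell from 8 to 5 without culture replicate 1 and to 4 without culture replicate 2. The calls of Klra1, Klra4 and Acta1 were lost each time, and that of Serpinb2 without culture replicate 2 (adjusted p = 0.054). Leaving out 1 depleted EpCAM-positive library also ended the Klra1 call without replicate 2, 4, 5 or 6 (adjusted p 0.055 to 0.082) and the Klra4 call without replicate 6 (adjusted p = 0.0504).

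In EpCAM-negative depleted cells 42.4% of tested genes differed from culture, 21.8% higher and 20.6% lower. Acsbg1 alone among the members was higher (log2 fold change 2.13 ± 0.45, edgeR adjusted p = 0.00035). Il24, Serpinb2, Klra1, Klra4 and Styk1 were lower, from Il24 with -3.50 ± 0.49 to Styk1 with -0.78 ± 0.24, and the other 5 did not pass. The Styk1 call was lost without culture replicate 2 (adjusted p = 0.12). The culture mean lay above both depleted means in 7 members and below both in 3, namely Klk6, Acsbg1 and Acta1.

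**Figure D4:**
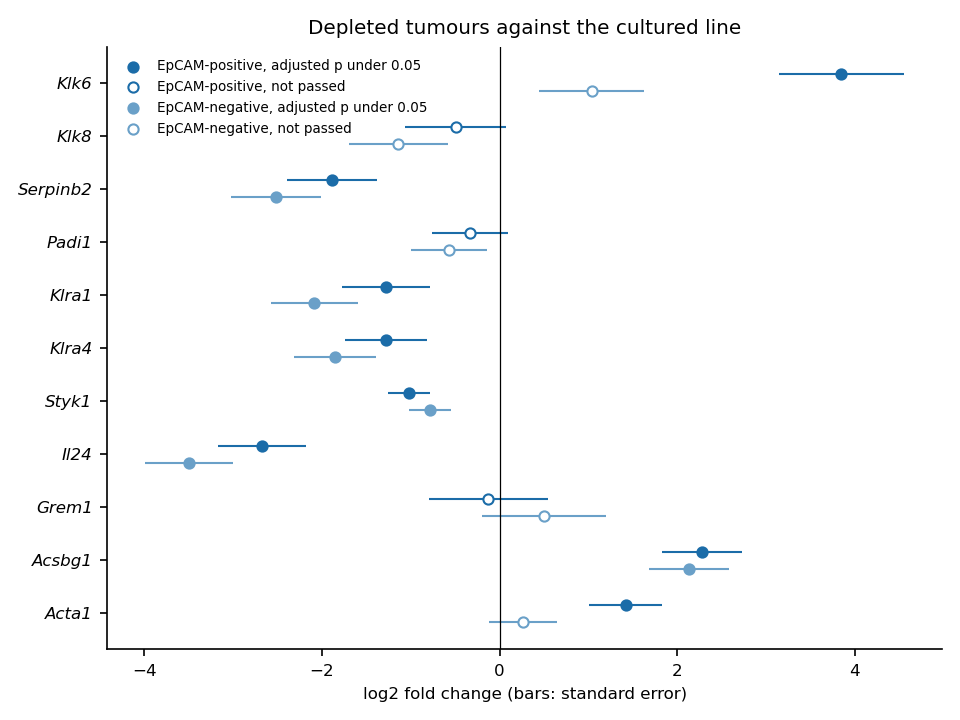
Log2 fold change of depleted EpCAM-positive (dark) and EpCAM-negative (light) tumour cells against the cultured line, with the standard error as bars and filled points for an edgeR adjusted p under 0.05. Klk6, Acsbg1 and Acta1 lie right of 0, and Il24 and Serpinb2 lie farthest left.

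The control libraries were ranked for each member, and those with the most extreme ranks are named here. Control EpCAM-negative replicate 2 was among the 3 highest of its 6 libraries in all 10 members with a count there, and replicate 1 was among the 2 lowest, ties included, in 8 of them. Among control EpCAM-positive libraries, replicate 5 was among the 3 highest in 8 members and replicate 4 among the 2 lowest in 8. Some ranks rest on very few reads, such as 1 Il24 count in control EpCAM-negative replicate 2. The same ranks over all genes were not computed, so nothing about the members is read from them.

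The 11 genes lie on 7 chromosomes, with Klk8 and Klk6 separated by 1 protein-coding gene, Klra4 and Klra1 by 5, and Klra1 and Styk1 by 7. The 6 coding genes on either side of each member included 106 that are no members. Of those, 46 had at least 1 CPM in both depleted groups, with a median ratio of depleted to control means of 1.31. In 6 of the 46 the control mean was at most 1/4 of the depleted mean, namely Klk7, Klk9, Klk10, Klra2, Padi4 and Scg5. Magohb, between Klra2 and Styk1, was at 15.7 and 19.8 CPM in the depleted and 11.7 and 11.6 CPM in the control fractions. In the annotation, exons of Klk8 overlap 2310002F09Rik on the other strand and those of Padi1 overlap Gm13032 on the other strand. Exons of Serpinb2 overlap Serpinb10 on the same strand, which had no counts. Reads from the overlaps on opposite strands cannot be told apart without strand, and strand does not separate Serpinb2 from Serpinb10.

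A further 7 genes met the rule except for their level in culture. They were Mmp9, Bmp7, P2ry12, Lyz2, Osm, Ccl6 and Ly6c2, of which P2ry12, Lyz2, Osm, Ccl6 and Ly6c2 are known from myeloid cells. Lyz2 was at 0.332 CPM in culture, 65.7 and 77.2 CPM in the depleted and 7.50 and 2.62 CPM in the control fractions. Another 9 met the rule except for a depleted mean between 1 and 5 CPM, among them Siglecg, Tigit, Slc2a5 and Lmx1a.

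Markers of several other cell types also differed between the treatments. CD45-positive cells had been removed by the sort. The summed level of 16 macrophage markers was 77.4 to 81.3 CPM in culture, 153 to 366 CPM in depleted, 130 to 293 CPM in control EpCAM-positive and 55.7 to 69.2 CPM in control EpCAM-negative libraries. In the fit over all genes 7 of 16 were lower and 2 higher in control EpCAM-positive cells, and 12 were lower and 1 higher in control EpCAM-negative cells. In culture, where no host cell was present, C1qa and 5 other markers of the list had 0 counts, and Cd68 and Cd14 were at 36.9 and 40.1 CPM. The erythroid and platelet list summed to 12.0 to 16.8 CPM in culture, 5.52 to 22.1 CPM in depleted and 0.223 to 1.63 CPM in control libraries, which did not overlap with the depleted ones. Its haemoglobin gene Hbb-bs was at 0.0183 CPM in culture, 6.04 and 4.93 CPM in the depleted and 0.137 and 0.0189 CPM in the control fractions. Of its 7 tested genes 4 were lower in control EpCAM-positive and 6 in control EpCAM-negative cells. Most of the culture sum of that list came from Ppbp, at 14.0 CPM. Ppbp was at 1.43 and 1.12 CPM in the depleted and 0.0499 and 0.00513 CPM in the control fractions. The summed level of the 10 fibroblast markers went the other way, at 19.8 to 20.6 CPM in culture, 79.1 to 260.4 CPM in depleted and 1148 to 4472 CPM in control libraries. Not every marker rose. In EpCAM-negative cells Col1a2 had means of 20.4 CPM in depleted and 12.3 CPM in control tumours. In EpCAM-positive cells Col3a1 had means of 49.9 and 46.2 CPM in the same order. Thy1 had 3 and 5 counts over the depleted and 2 and 0 counts over the control fractions, too few to compare. Of 8 fibroblast markers tested, 4 were called higher in control EpCAM-positive and 6 in control EpCAM-negative cells, and none was called lower. The part of RNA from these cell types in the members' tumour levels was not tested.

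Across all 26 libraries, the genes outside the group whose log2(CPM + 1) followed the members' mean most closely were Padi4 (Pearson r = 0.978), Cap1 (0.976), Tes (0.972), Adipor2 (0.970) and Hdac6 (0.964). These values describe 10922 ranked genes over libraries that fall into separate groups. Cap1 had means of 572 and 533 CPM in the depleted and 307 and 275 CPM in the control fractions.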

How the data were processed

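RNA was measured by single-read sequencing of amplified cDNA from 24 sorted tumour samples and 2 culture samples. The authors deposited raw read counts per gene, made with STAR and the mouse build mm9 according to the submitters' processing notes. The program that counted reads, its annotation and its use of strand are not stated in these sources. A second deposited table, normalized with DESeq2 1.22.2 per the same notes, was not used here. Of 47730 features, 47224 were matched by identifier to a GENCODE symbol. Gene order and promoters came from RefSeq on GRCm38.p6.

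Samples were grouped by title. CPM was each count divided by its column total. Tests used edgeR 4.0.16 in R 4.3.3 (TMM, its expression filter by group, quasi-likelihood, 1 coefficient per group, all 26 libraries sharing 1 spread, 16637 genes). P-values were adjusted over all genes by the Benjamini-Hochberg method with a threshold of 0.05. Fold changes are log2 with standard errors. Intervals and limits from counts cover counting error only, since the reads carry no molecular identifiers. The script was tested on simulated data. Alternatives were DESeq2 1.42.0, other scaling and filters, fits to the compared groups only, a replicate block, other thresholds of the rule, and leaving out each library.

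The members, gene lists and families were chosen with earlier results of these data known. Members were all named; outside them, names went to the 3 genes nearest the threshold, the 5 most alike and genes of the listed families and neighbours. The 2 fractions were sorted from each tumour, but the labels do not tie replicate numbers to tumours.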

Additional observations from a re-analysis of the deposited data

Results flagged for a closer look

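In 3 of 43 sets of 6 libraries examined, 1 library lay far from the others, where chance alone gives about 1 in 20. Il24 was at 0.123 CPM in control EpCAM-negative replicate 5, against 0 to 0.0302 CPM in the others, a matter of 4 counts. Klra1 was at 10.1 CPM in depleted EpCAM-negative replicate 5, against 5.53 to 6.72 CPM. Acta1 was at 14.7 CPM in depleted EpCAM-negative replicate 6, against 20.0 to 22.6 CPM.

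In the edgeR test the difference between EpCAM fractions was called different between treatments for 2 members, and nothing is read from those calls. The log2 fold change of EpCAM-negative against EpCAM-positive cells was lower in control than depleted tumours by a fitted -7.34 for Serpinb2, no bound since 1 group held no counts, and by -4.24 for Il24. With 0 and 7 counts in the control EpCAM-negative groups, both values rest on very few reads.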

How the results depend on the processing

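The number of members depended on the rule: 24 genes met it with a ratio of 1/4, 5 with 1/16, 25 with a floor of 1 CPM and 18 without a demand on the culture. Leaving out 1 library gave 10 to 13, and Il24 dropped out without depleted EpCAM-negative replicate 5 or control EpCAM-positive replicate 3, 4 or 5. With only the compared groups in the fit, 7 of 11 members differed between fractions in depleted tumours and 1 of 7 in control tumours, where the other 4 did not pass the expression filter, and Styk1 in control tumours turned to a log2 fold change of -0.0077. Leaving out 1 library gave 2 to 2 members for depleted fractions, 5 to 7 for control fractions, 2 to 3 for the difference of those contrasts, 4 to 8 for depleted EpCAM-positive cells against culture and 5 to 6 for EpCAM-negative cells. None of those left 1 library in a group except the 2 fits without a culture, where the lone culture is assumed to vary like the tumour groups.

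Replicate numbers are shared between fractions. Deviations of same-numbered libraries from their group means correlated at 0.062 to 0.193 in depleted and 0.077 to 0.335 in control tumours, and in each treatment 5 of 6 numbers matched their own number best. As not every pair exceeded 0.1, the numbers were not taken to pair libraries. With a replicate block, 6 members differed between depleted fractions and 4 in the difference of contrasts, with values of -0.0691 for Padi1 in control tumours and -0.0422 for the Klra1 difference. Without 1 library, log2 values that changed sign, none past the threshold, ranged from -0.257 to 1.00 (Grem1 difference), -0.0155 to 0.491 (Padi1 difference), -0.0324 to 0.573 (Klra4 difference), -0.480 to 0.472 (Klra1 difference), -0.248 to 0.259 (Padi1, control) and -0.110 to 0.202 (Styk1, control). DESeq2 called 3, 6, 2, 7 and 6 members in the 5 comparisons, against 2, 6, 2, 8 and 6 with edgeR. Of 953 single-gene values, 894 kept direction and call, 24 lost and 17 gained the call, and 18 changed sign. The cause of these changes was not tested. Low counts limit the control fractions, where Klk6, Il24 and Serpinb2 had 10, 7 and 0 counts over 6 EpCAM-negative libraries.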
